A study of Mus musculus with 6 samples.

Results

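The SoxF transcription factors Sox7, Sox17 and Sox18 were followed through a brain RNA-sequencing comparison of mouse embryos that lack the transporter gene Mfsd7c and wild-type embryos. They are 3 of the 52459 gene symbols in the deposited count table and were picked by name, with their knockout against wild-type values already known. Those values are therefore given as a description, with no p-value. Whole brains of C57BL/6 embryos at E14.5 gave 6 bulk libraries, 3 labelled Mfsd7c-/- (KO1 to KO3) and 3 labelled wild type (WT1 to WT3). No Cre, transgene or treatment is named for either group, and the sources used here do not give the deleted part of the gene. Litters are not stated either, so p-values measure only the spread between these samples, which may be technical.

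SoxF proteins bind DNA through an HMG box and act mainly in the endothelium of growing vessels, where the 3 genes overlap in function. Sox18 switches on Prox1 in the precursors of lymphatic vessels and also acts in hair follicles, and mutations in it cause the ragged mouse phenotype. Sox17 is known for arterial identity, for responding to Wnt signalling in brain vessels, and for roles in gut endoderm and in cells that become oligodendrocytes. Sox7 takes part in the assembly of early vessels and in arteriovenous patterning.

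The 3 genes lie on separate chromosomes of the GRCm38 annotation. Sox7 (ENSMUSG00000063060.6) spans chromosome 14 from 63943673 to 63950732 on the plus strand, with 1 annotated transcript of 2 exons. Sox18 (ENSMUSG00000046470.5) spans chromosome 2 from 181669836 to 181671640 on the minus strand, also with 1 transcript of 2 exons. Sox17 (ENSMUSG00000025902.13) spans chromosome 1 from 4490931 to 4497354 on the minus strand and has 8 annotated transcripts. The noncoding gene Gm37587 runs on the plus strand and overlaps Sox17 by 804 bases. It had 0 to 5 counts in a library, against 235 to 422 for Sox17. Without a stated strand setting, reads from the shared bases cannot be assigned to one of these genes with certainty. The rows count reads per gene, so the Sox17 transcripts cannot be told apart.

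The libraries held 43784619 to 50549673 counts, and all 3 genes passed the filter on low counts. The target, Mfsd7c, had 119, 129 and 130 counts in KO1 to KO3 and 206, 291 and 259 in WT1 to WT3, lower in each library labelled knockout. Where in the gene the remaining counts lie cannot be read from a gene-level table. Libraries also differed within the groups. Krt5, a keratin of the epidermis, ran from 0.339 to 105 CPM (read counts scaled to library size with TMM factors) and was highest in KO1 and WT1. The hindbrain and spinal cord gene Hoxb3 stood at 14.3 and 6.28 CPM in WT2 and WT3 and at 0.676 CPM in WT1. It was at 0.250 CPM or less in the knockout libraries, so this difference cannot be told apart from genotype. Xist, the transcript of the inactive X chromosome, had 82198 counts in WT2 and 6 to 27 in the others. The share of embryonic beta-globin placed KO1 and KO3 and WT1 at 2.80% to 5.03%, and the other 3 libraries at 23.3% to 26.5%.

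In the knockout brains Sox18 was lower in each library by about the same amount, Sox17 was lower on average but overlapped between the groups, and Sox7 showed no common direction. The ratio of the knockout to the wild-type mean was 0.582 for Sox18, 0.837 for Sox17 and 0.969 for Sox7. In whole brain tissue, fewer cells that express these genes, endothelial or other, and less RNA per cell cannot be told apart. The summed pan-endothelial list, given below, was higher in knockout, and cell numbers were not tested.

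Sox18 had 290, 297 and 299 counts in KO1 to KO3. It had 499, 520 and 538 in WT1 to WT3. On the CPM scale the knockout libraries stood at 6.72, 5.86 and 6.24, and the wild-type libraries at 11.3, 10.3 and 10.7. The groups did not overlap, and the highest knockout library reached 0.650 times the lowest wild-type library. Knockout and wild-type means were 6.27 ± 0.434 and 10.8 ± 0.455 CPM (SD, n = 3 each). The edgeR fit over all genes gave a log2 fold change of -0.78 (SE 0.107). Replicates differed little, with a coefficient of variation of 6.92% in knockout and 4.22% in wild-type, and counting error alone gives 5.87% at 290 counts.

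Sox17 had 235, 382 and 322 counts in KO1 to KO3. It had 299, 422 and 421 counts in WT1 to WT3. In CPM these were 5.45, 7.53 and 6.72 in knockout and 6.74, 8.39 and 8.40 in wild-type. Replicate 1 was the lowest of its group in both genotypes, and KO2 lay above WT1. Mean levels were 6.57 ± 1.05 in knockout and 7.84 ± 0.956 CPM in wild-type (SD, n = 3 each), and the fitted log2 fold change was -0.26 (SE 0.155). The difference between the means was close to the spread between replicates.

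Sox7 had 244, 281 and 364 counts in KO1 to KO3. It had 172, 386 and 393 counts in WT1 to WT3. The CPM values were 5.66, 5.54 and 7.60 in knockout and 3.88, 7.68 and 7.84 in wild-type. The lowest of all 6 libraries was therefore a wild-type library, and so was the highest, with 2.02 times as much Sox7 as the lowest. The group means lay close together, at 6.26 ± 1.16 CPM for knockout and 6.47 ± 2.24 CPM for wild-type (SD, n = 3 each), and the log2 fold change was -0.05 (SE 0.264). The coefficient of variation among the wild-type libraries was 34.7%, against 4.22% for Sox18 in the same libraries.

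**Figure D1:**
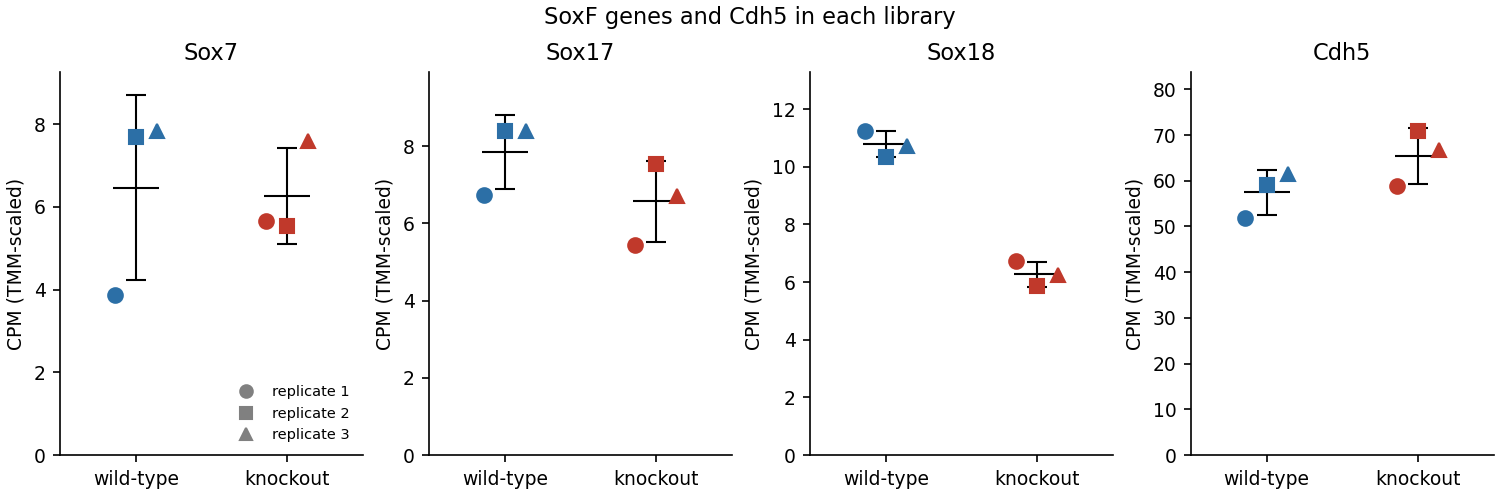
CPM (TMM-scaled) of Sox7, Sox17, Sox18 and the endothelial cadherin gene Cdh5 in each of 6 libraries, with replicate numbers as symbols and bars for the mean ± SD of 3 libraries. Sox18 separates the groups (5.86 to 6.72 against 10.3 to 11.3 CPM), whereas Sox7 spans 3.88 to 7.84 CPM within wild-type alone.

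Of the 3 genes, 1 (Sox18) lay past an FDR of 0.05 on the lower side in the edgeR fit, as did 0.0358% of the 19565 genes tested. Its groups also did not overlap in CPM with knockout lower, which held for 6.58% of all genes. Because this contrast chose the genes, nothing is read from either count. The authors' deposited table gives log2 fold changes of -0.78 (SE 0.128) for Sox18, -0.25 (SE 0.167) for Sox17 and -0.04 (SE 0.250) for Sox7, from the same libraries.

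Summed over the family, SoxF transcripts reached 17.8, 18.9 and 20.6 CPM in KO1 to KO3, against 21.9, 26.4 and 27.0 CPM in WT1 to WT3. The groups did not overlap, and the mean was 23.9% lower in knockout at 19.1 ± 1.37 against 25.1 ± 2.80 CPM (SD, n = 3). Sox18 made up most of that difference (6.27 against 10.8 CPM), and Sox7 little of it (6.26 against 6.47 CPM). As the genes were chosen with this contrast known, nothing is read from the lack of overlap. Scaled to exon length, Sox18 was the most abundant member in both genotypes. Its level was 6.65 ± 0.281 RPKM (reads scaled to exon length and library size; SD, n = 3) in wild-type and 3.87 ± 0.268 RPKM in knockout brains. Sox7 stood at 1.96 ± 0.680 and 1.90 ± 0.350 RPKM in wild-type and knockout. Sox17 stood at 1.64 ± 0.200 and 1.38 ± 0.220 RPKM over its 4772 annotated exon bases, and at 2.42 ± 0.295 and 2.03 ± 0.324 RPKM over the 3242 bases of its longest coding transcript. Sox7 and Sox17 were thus neighbours in the order whose places depend on the length used. Sox18 exceeded both of them in each library with either length.

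The makeup of the family restates these same values, since a lower Sox18 lowers its share where Sox7 and Sox17 change less. It is therefore not a second result. Sox18 supplied 65.1% ± 6.69 (SD, n = 3) of the summed SoxF RPKM in wild-type and 54.3% ± 4.39 (SD, n = 3) in knockout brains. In KO1 to KO3 that share was 59.2%, 52.6% and 50.9%, and in WT1 to WT3 it was 72.9%, 61.0% and 61.6%. The ranges did not overlap, although 59.2% and 61.0% lay close together. Per Sox7 count there were 1.19, 1.06 and 0.821 Sox18 counts in knockout and 2.90, 1.35 and 1.37 in WT1 to WT3. Per Sox17 count there were 1.23, 0.777 and 0.929 Sox18 counts in knockout and 1.67, 1.23 and 1.28 in wild-type, and here the groups overlapped near 1.23.

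The ratio to Cdh5, the endothelial cadherin that holds vessel walls together, sets each gene against an endothelial transcript in its own library, and library scaling drops out of it. Cdh5 also stands in the list of genes linked to SoxF given below, as do the later denominators Kdr, Tek and Robo4. Cdh5 itself averaged 65.5 ± 6.15 CPM in knockout against 57.5 ± 4.94 CPM in wild-type (SD, n = 3 each). Its log2 fold change was 0.19 (SE 0.0889), with a Benjamini-Hochberg adjusted p = 0.645 in the quasi-likelihood test of edgeR. Against this denominator the median gene had a log2 ratio of -0.20, so values are read relative to that shift.

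Per 100 Cdh5 counts, Sox18 had 11.4, 8.25 and 9.36 counts in KO1 to KO3 and 21.7, 17.5 and 17.5 in WT1 to WT3. Each knockout library was below each wild-type library, and the log2 ratio difference was -0.97 (SD 0.237 in knockout and 0.178 in wild-type, n = 3 each). Sox17 had 9.26, 10.6 and 10.1 in knockout and 13.0, 14.2 and 13.7 in wild-type. The overlap seen in CPM was absent here, with a difference of -0.45 on the log2 scale (SD 0.0995 and 0.0650, n = 3 each). Sox7 had 9.61, 7.81 and 11.4 in knockout and 7.47, 13.0 and 12.8 in wild-type, which overlapped, with a log2 difference of -0.18 (SD 0.273 and 0.454, n = 3 each). Separation of this kind was common, since 22.6% of all genes had a lower ratio to Cdh5 in each knockout library than in each wild-type library.

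**Figure D2:**
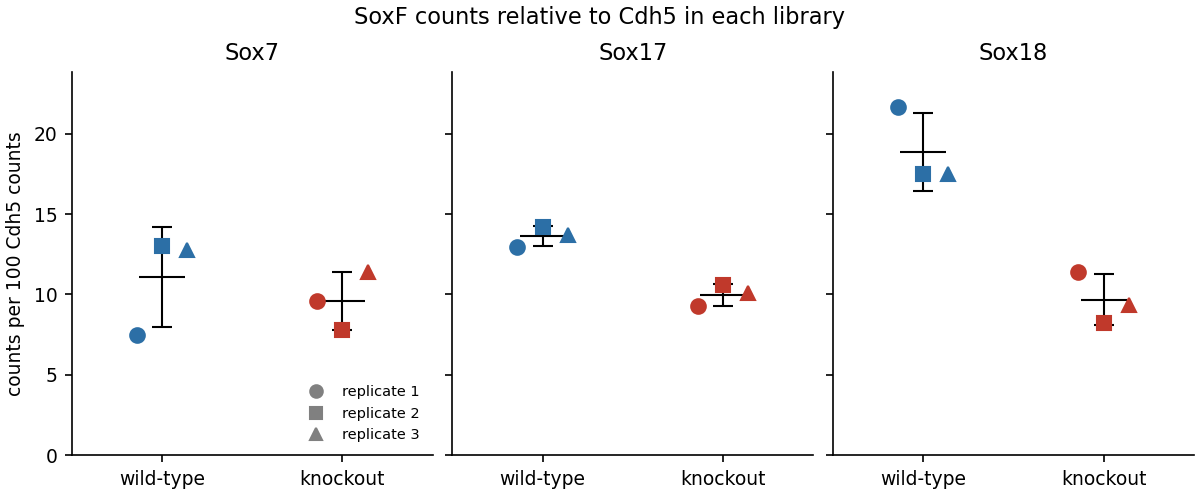
Counts of Sox7, Sox17 and Sox18 per 100 Cdh5 counts in each library, with replicate numbers as symbols and bars for the mean ± SD of 3 libraries. Sox17 and Sox18 do not overlap between the groups (9.26 to 10.6 against 13.0 to 14.2, and 8.25 to 11.4 against 17.5 to 21.7), and Sox7 does.

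The choice of endothelial gene mattered, because the pan-endothelial genes did not move together. Of 14 listed, 6 rose and 0 fell in the edgeR test at an FDR of 0.05, against 0.624% of all genes rising. The 6 were Cd34 at a log2 fold change of 1.14 (SE 0.0695), Pecam1 at 1.00 (SE 0.0829), Eng at 0.80 (SE 0.0973), Emcn at 0.79 (SE 0.115), Robo4 at 0.71 (SE 0.123) and Ecscr at 0.64 (SE 0.108). The number became 2 without KO1, KO3, WT2 or WT3, beside 36 to 51 calls over all genes. It was 3 without KO2, beside 111 over all genes. Tek, the angiopoietin receptor Tie2, had the lowest log2 value of the list at -0.49 (SE 0.114; adjusted p = 0.175 in edgeR). It fell in DESeq2 (adjusted p = 0.0119) and in edgeR without WT1 (adjusted p = 0.00968). Those settings called 60 and 155 genes lower over all genes, against 7 in the main edgeR test.

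Over these 14 denominators, the Sox18 difference ran from -1.92 for Cd34 to -0.30 for Tek on the log2 scale, with a median of -1.11. It was negative against all 14, and the groups did not overlap against 12, the exceptions being Tek and Clec14a. Sox17 ran from -1.40 for Cd34 to 0.22 for Tek, was negative against 13 and did not overlap against 10. Sox7 ran from -1.12 for Cd34 to 0.49 for Tek. It was lower in each knockout library against 5 denominators, all among those that rose (Cd34, Pecam1, Emcn, Eng and Robo4), and higher in each against Tek. The share of all genes whose ratio was lower in each knockout library than in each wild-type library differed greatly by denominator. It was 91.3% for Cd34, 89.3% for Pecam1, 84.9% for Emcn, 83.2% for Eng, 81.4% for Robo4 and 78% for Ecscr, the genes that rose. It was 65.9% for Esam, 28% for Tie1, 16.2% for Erg, 9.92% for Kdr, 1.03% for Clec14a and 0.276% for Tek. Against the summed list, where 67.5% of all genes were lower throughout, the log2 difference was -1.23 for Sox18, -0.71 for Sox17 and -0.44 for Sox7, and only Sox7 overlapped. Because a change of denominator moves all genes alike, the distance of a gene from the median gene stays about the same. Sox7 thus lay close to it throughout, at -0.99 against -1.01 for Pecam1 and at 0.49 against 0.47 for Tek. Against Egfl7, which gave this separation in 2.01% of all genes, Sox18 was lower in each knockout library, with a log2 difference of -0.69. Against Clec14a and Tek, where separation was rarer, Sox18 overlapped. Because this contrast chose the gene, nothing is read from these shares.

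**Figure D3:**
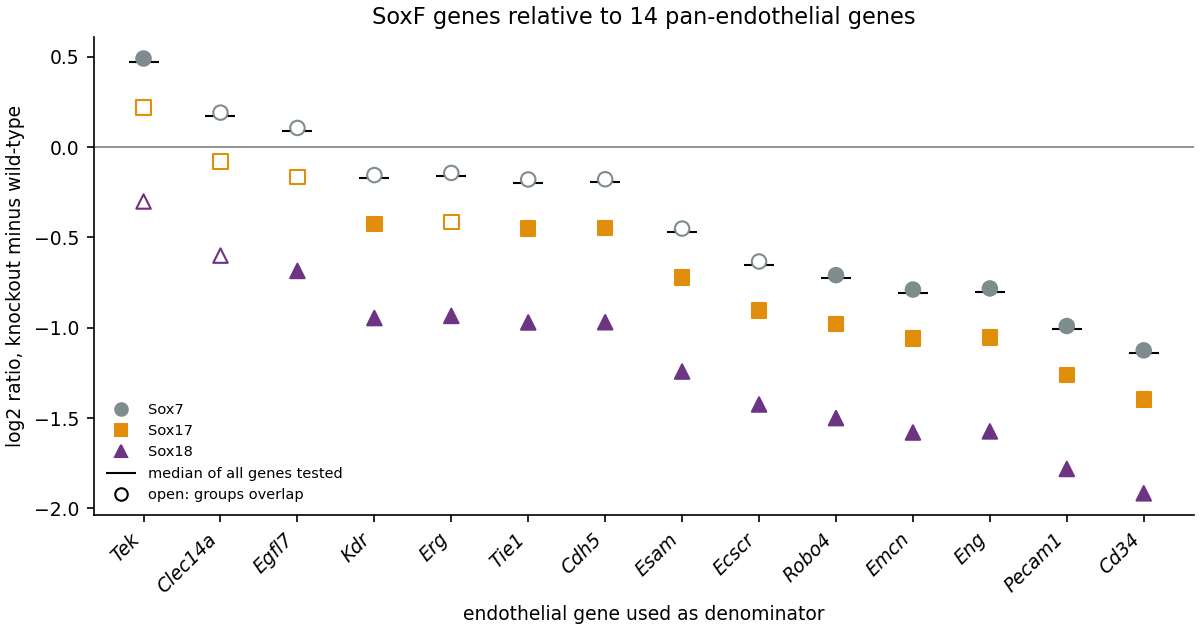
Difference between knockout and wild-type in the log2 ratio of each SoxF gene to 14 pan-endothelial genes, ordered by the fold change of the denominator; filled symbols mark groups that do not overlap and black dashes the median of all genes tested. Sox7 follows the median gene, and Sox18 lies below it throughout, from -0.30 (Tek) to -1.92 (Cd34).

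The values were then taken within the sets formed by the embryonic beta-globin share. In the low-share set Sox18 averaged 6.48 CPM in 2 knockout libraries against 11.3 CPM in 1 wild-type library, a log2 difference of -0.80. In the high-share set it was 5.86 CPM in 1 knockout library against 10.5 CPM in 2 wild-type libraries, a difference of -0.85. Sox17 differed by -0.16 in both sets on the log2 CPM scale, and by -0.43 and -0.39 as a ratio to Cdh5. Sox7 turned between the sets. It was higher in knockout by 0.76 on the log2 CPM scale in the low-share set and lower in knockout by a value of -0.49 in the high-share set. With so few libraries in each set these differences were not tested.

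Fits without single libraries gave Sox18 log2 fold changes of -0.83 to -0.73 and Sox17 -0.37 to -0.14. The Sox7 value ran from -0.31 without WT1 to 0.11 without WT3. Without WT2 and WT3, the libraries with most Hox transcripts, it was 0.70 for Sox7, -0.03 for Sox17 and -0.84 for Sox18. Without KO1 and WT1, the libraries with most Krt5, it was -0.24 for Sox7, -0.24 for Sox17 and -0.80 for Sox18. The Sox18 value thus moved by less than its SE of 0.107 in these fits, whereas the direction for Sox7 depended on single libraries.

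**Figure D4:**
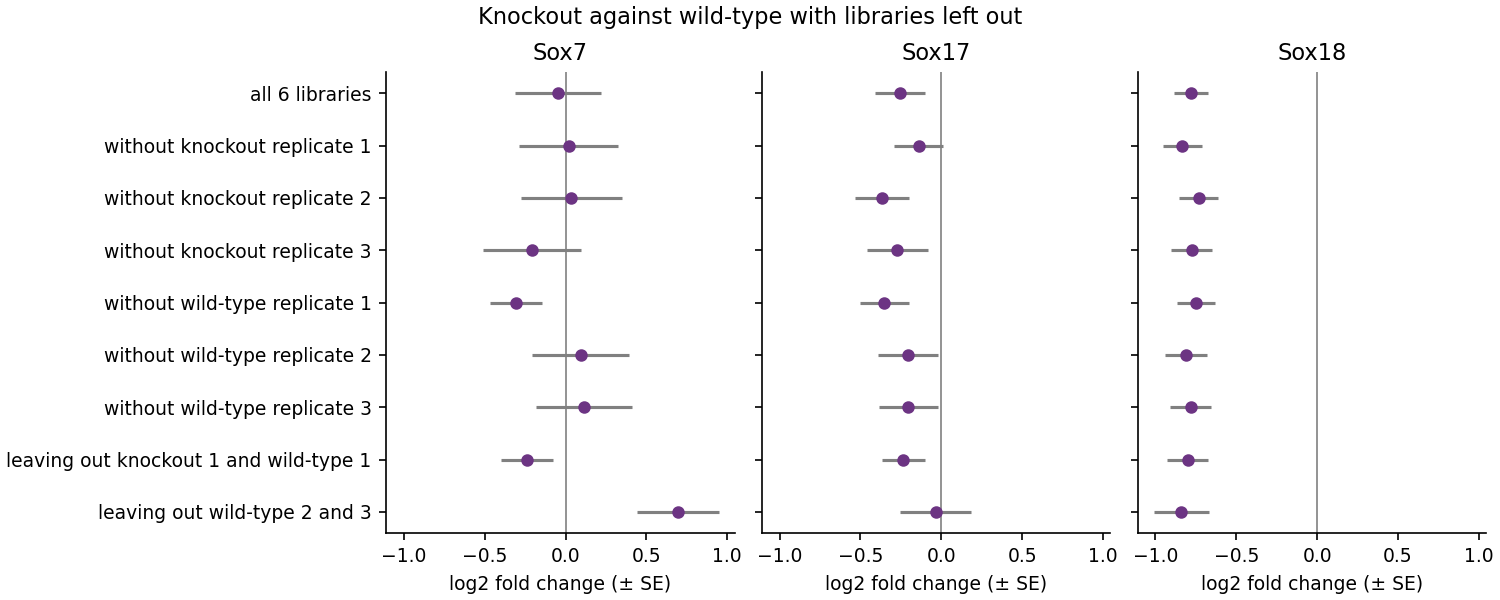
Log2 fold change (± SE, edgeR) of Sox7, Sox17 and Sox18 with all 6 libraries, with each left out in turn, and with pairs left out. Sox18 stays between -0.84 and -0.73, and Sox7 crosses 0, from -0.31 to 0.70.

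Markers of other cell types that can express SoxF genes were read beside these values. Counts at an unadjusted p under 0.05 are given here and below without the share of all genes at that cut, so nothing is read from them. Of 8 epidermal and hair follicle genes 0 passed in edgeR, with 0 at an unadjusted p under 0.05, and their sum ran from 26.6 to 464 CPM in knockout and from 21.0 to 399 CPM in wild-type libraries. Sox18 stood at 6.72, 5.86 and 6.24 CPM in KO1 to KO3, with 105, 3.73 and 20.4 CPM of Krt5. In WT1 to WT3 it was 11.3, 10.3 and 10.7 CPM, with 79.9, 3.54 and 0.339 CPM of Krt5. Sox18 was thus highest in the library with most Krt5 in each group, and a relation was not tested. Of 5 lymphatic endothelial genes 1 rose, Flt4, beside 0.624% of all genes, and the sum was 117 to 135 CPM in knockout against 105 to 118 CPM in wild-type libraries. The Flt4 call was lost without KO1, KO3, WT2 or WT3, with edgeR adjusted p from 0.100 to 0.139. Prox1, the lymphatic gene that Sox18 activates, stood at 0.17 on the log2 scale (SE 0.119; adjusted p = 0.774 in edgeR), and neurons and neural progenitors express it too. Of 6 oligodendrocyte lineage genes 0 passed in edgeR, with 1 at an unadjusted p under 0.05 and sums of 140 to 158 CPM in knockout and 143 to 179 CPM in wild-type. Of 6 endoderm and gut genes 4 could be tested and 0 passed in edgeR, with 0 at an unadjusted p under 0.05. Their sums overlapped, and Cdx2 was at 0 in each library.

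Sums of some other lists did not overlap between the groups. The 14 pan-endothelial genes summed to 456 to 501 CPM in knockout and 306 to 372 CPM in wild-type libraries, the opposite direction to Sox18. Cd34 (76.9 against 35.0 CPM), Pecam1 (64.7 against 32.3 CPM) and Eng (41.1 against 23.7 CPM) made up most of that difference. Tek, Clec14a and Egfl7 had lower means in knockout. The 8 mural cell genes summed to 127 to 137 CPM against 186 to 207 CPM, with Rgs5 the 1 gene of the list that fell, beside 0.0358% of all genes. Rgs5, a pericyte gene, made up most of that difference, at 39.3 ± 3.80 CPM in knockout against 95.5 ± 10.6 CPM in wild-type (SD, n = 3 each). The 11 caudal Hox genes summed to 0.591 to 2.34 CPM in knockout and 3.70 to 150 CPM in wild-type libraries, where WT1 was the lowest. Of the 6 Hox genes that could be tested 0 passed in edgeR, with 5 at an unadjusted p under 0.05. Of erythroid and microglial genes 0 of 7 and 0 of 7 passed in edgeR, with 0 at an unadjusted p under 0.05 in both, and both sums overlapped. The part of the mural and Hox differences in the SoxF values was not tested beyond the fits with libraries left out.

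None of the other Sox genes passed the edgeR test. Of 16 listed, 15 could be tested, 0 rose and 0 fell, with 5 at an unadjusted p under 0.05. DESeq2 called 1 (Sox10, adjusted p = 0.0489), beside 313 over all genes, and limma-voom 0. The median log2 fold change of the list was 0.11, against -0.01 over all genes tested. The lowest was Sox10, a regulator of oligodendrocytes and neural crest, with 4.30 ± 0.767 against 6.70 ± 1.01 CPM in knockout and wild-type (SD, n = 3 each; log2 fold change -0.64, SE 0.176, edgeR adjusted p = 0.293). Sox9, which maintains neural progenitors, had 0.26 (SE 0.0660), Sox1 had 0.17 (SE 0.0518) and Sox11, a neuronal Sox gene, had 0.19 (SE 0.0678), each with edgeR adjusted p from 0.243 to 0.488. Sox11, Sox4 and Sox12 were the most abundant, at 1098, 622 and 256 CPM in wild-type brains, and Sox4 and Sox12 had log2 values of 0.10 (SE 0.0995) and -0.08 (SE 0.0744).

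Endothelial transcription factors of other families also did not pass. Of 32 listed, 31 could be tested, 0 rose and 0 fell in edgeR, and 8 had an unadjusted p under 0.05. DESeq2 called 3, beside 313 over all genes, and limma-voom 0. The median log2 fold change of the list was 0.02. Among the 4 with the lowest p, Bcl6b had 0.67 (SE 0.132; adjusted p = 0.0877 in edgeR), Ets2 0.45 (SE 0.109) and Foxf2, a factor of brain mural cells, 0.40 (SE 0.106). Klf2, a factor induced by blood flow, was the lowest at -0.64 (SE 0.147; adjusted p = 0.171 in edgeR). It had 6.19, 6.53 and 4.86 CPM in KO1 to KO3 and 8.03, 9.45 and 9.90 CPM in WT1 to WT3, which did not overlap. Such separation with knockout lower held for 2 of the 31 genes, beside 6.58% of all genes, so nothing is read from it. Without WT1 the list had 3 calls, of which 2 were higher, beside 388 over all genes, of which 233 were higher. Erg and Fli1, ETS factors of all endothelium, had log2 values of 0.15 (SE 0.120) and -0.14 (SE 0.112).

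**Figure D5:**
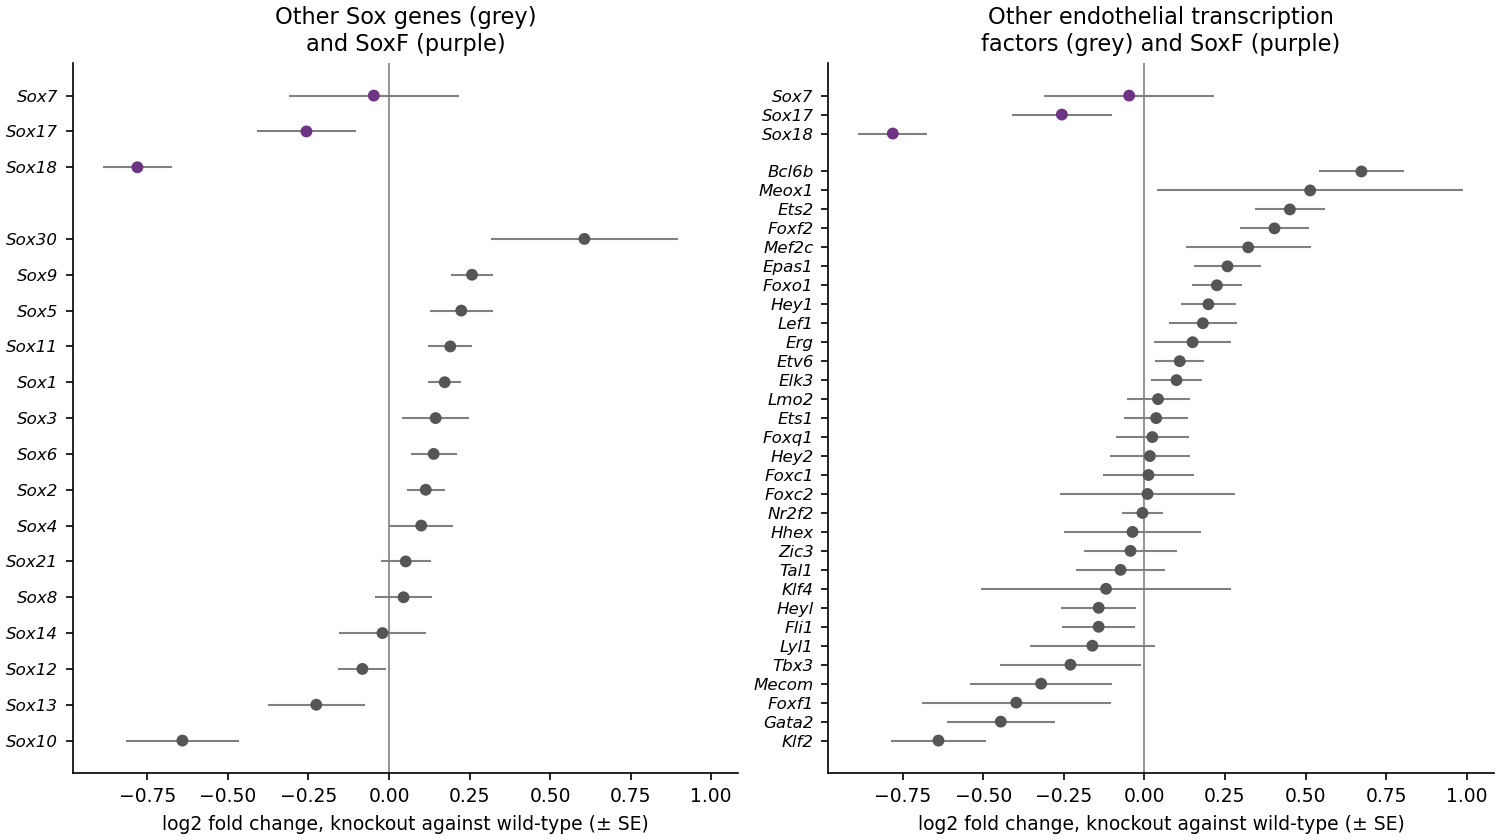
Log2 fold change (± SE, edgeR) of 15 other Sox genes (left) and 31 other endothelial transcription factors (right), with the 3 SoxF genes at the top of each panel. Sox18 at -0.78 lies below each gene of both lists, whose lowest are Sox10 at -0.64 and Klf2 at -0.64. Sox18 was chosen with this contrast known, so nothing is read from its place.

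Genes linked to SoxF factors as targets, partners or receptors moved in both directions. Of 16 listed, 15 could be tested, 2 rose and 1 fell at an FDR of 0.05, beside 0.659% of all genes called in either direction. Cldn5, the claudin of endothelial tight junctions whose promoter Sox18 can activate, fell. It had 44.8, 47.0 and 45.7 CPM in KO1 to KO3 and 63.8, 67.8 and 63.3 CPM in WT1 to WT3. The groups lay well apart, with a log2 fold change of -0.50 (SE 0.0585; adjusted p = 0.00840 in edgeR). Flt4, the receptor for VEGF-C, rose from 6.57 ± 0.229 to 13.2 ± 2.31 CPM (SD, n = 3; log2 fold change 1.00, SE 0.141, edgeR adjusted p = 0.0186). Robo4, an endothelial guidance receptor, rose from 8.29 ± 0.930 to 13.6 ± 1.34 CPM (SD, n = 3; edgeR adjusted p = 0.0467). Flt4 was also counted in the lymphatic list and Robo4 in the pan-endothelial list. The list's median log2 fold change was 0.17. Calls fell to 0 without KO1, KO3 or WT2 and to 1, Cldn5, without WT3, beside 36 to 51 over all genes in these fits. The Robo4 call was also lost with upper-quartile factors (edgeR adjusted p = 0.0508) and in limma-voom (adjusted p = 0.0588).

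Notch and arterial genes, some of which SoxF factors help to switch on, gave 0 of 18 past the threshold in edgeR, with 5 at an unadjusted p under 0.05. As whole brain RNA was counted, these values are not those of endothelium alone. DESeq2 called 1 (Gja4, adjusted p = 0.0264), beside 313 over all genes, and limma-voom 0. Dll4, the Notch ligand of sprouting and arterial endothelium, had a log2 fold change of 0.53 (SE 0.147; adjusted p = 0.308 in edgeR). The arterial connexin genes lay on the other side. Gja4 had 5.94 ± 1.39 CPM in knockout and 9.32 ± 0.612 CPM in wild-type (SD, n = 3; log2 fold change -0.65, SE 0.175), and Gja5 had 1.71 ± 0.561 and 3.16 ± 0.871 CPM (log2 fold change -0.88, SE 0.304, edgeR adjusted p = 0.478). Acvrl1, a BMP receptor of arterial endothelium, had 0.39 (SE 0.115). The list median was 0.05.

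Wnt genes listed for brain vessels, the ligand genes Wnt7a, Wnt7b and Ndp among them, gave 0 of 18 past the threshold in edgeR. There were 4 at an unadjusted p under 0.05, 2 calls in DESeq2 (Fzd4 and Lrp5), beside 313 over all genes, and 0 in limma-voom. Whole brain RNA does not tell which cells expressed them, and Ctnnb1 stood at 890 CPM in wild-type brains against 57.5 CPM for Cdh5. The Norrin receptor Fzd4 stood at 10.6 ± 0.672 CPM in wild-type brains (SD, n = 3) and had a log2 fold change of 0.45 (SE 0.0938; adjusted p = 0.117 in edgeR). The co-receptor genes Lrp5 and Lrp6 had log2 values of 0.37 (SE 0.0865) and 0.14 (SE 0.0591). Apcdd1, a Wnt target and inhibitor, had -0.22 (SE 0.0608; adjusted p = 0.303 in edgeR). The list median was -0.03.

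The genes most like each SoxF gene were sought over the 6 libraries, by the root mean square difference between log2 CPM profiles centred on their own means, among 13697 genes with a mean of at least 1 CPM. For Sox18 these were Lims2 (0.0520), Vsir (0.117), Rhbdl1 (0.139), Klhl35 (0.139) and the target Mfsd7c itself (0.154), against a spread of 0.395 for Sox18 around its own mean. Lims2 had 1.04, 0.828 and 0.939 CPM in KO1 to KO3 and 1.62, 1.63 and 1.60 CPM in WT1 to WT3. For Sox17 they included Tmem150a (0.0193), Cacna1g (0.0349), Dnah2 (0.0372) and Npr2 (0.0387), against a spread of 0.216. Cacna1g encodes a calcium channel of neurons. For Sox7 they were Dbx1 (0.113), Slco4a1 (0.119), Pla2g3 (0.135), Arhgef39 (0.145) and Padi2 (0.146), against a spread of 0.362. Dbx1, a patterning gene of hindbrain and spinal cord progenitors, had 11.1, 13.4 and 17.8 CPM in KO1 to KO3 and 9.18, 17.9 and 19.8 CPM in WT1 to WT3, again lowest in WT1.

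Between the SoxF profiles the differences were 0.324 for Sox7 and Sox17, 0.351 for Sox17 and Sox18 and 0.557 for Sox7 and Sox18. These are larger than the values above, but those genes were picked as the closest, so nothing is read from the comparison. The profiles share libraries, depth and genotype, and such matches describe only these 6 libraries.

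The coding neighbours of the 3 genes were read beside them. Tcea2, 8669 bases from Sox18, had a log2 fold change of -0.19 (SE 0.0975; adjusted p = 0.677 in edgeR), and Gm29797 on its other side had 8 to 17 counts. Pinx1, 23813 bases from Sox7, had -0.22 (SE 0.0956; adjusted p = 0.625 in edgeR), and 4930578I06Rik on its other side had 0 counts. Rp1, 81689 bases from Sox17, had 7 to 13 counts and was not tested. Mrpl15, 275851 bases away on the other side, had -0.00447 (SE 0.0920; adjusted p = 0.994 in edgeR). None of these neighbours that could be tested passed.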

How the data were processed

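Whole-brain RNA from 3 knockout and 3 wild-type embryos was sequenced, and samples were grouped by their titles. The authors deposited raw counts, whole numbers of reads for each gene symbol, judged from the values. The submitters' processing notes list STAR 2.5.2a, featureCounts, DESeq2 1.12.4 and the builds mm10 and hg19, without roles. Not given in the sources used here were the annotation release, strand setting and handling of shared reads. A second table from the authors holds, per the file headers, a mean normalized signal, a log2 fold change with its SE, a Wald score and p-values.

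From the counts, 19565 genes kept by filterByExpr were scaled by TMM and tested with the robust quasi-likelihood test of edgeR 4.0.16 in R 4.3.3, with Benjamini-Hochberg adjustment at 0.05. Simulated counts with known changes were used to check this step, where the false share ran somewhat above the nominal rate. Ratios used raw counts. Lengths and positions came from GENCODE M21 (GRCm38), which may not be the authors' annotation, so RPKM values are approximate. Alternatives were other scaling factors, no filter, DESeq2 1.42.0, limma-voom 3.58.1, a replicate block, libraries left out, other denominators and, added later, a beta-globin set term.

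The genes, lists and alternatives were chosen with earlier results of these data known. Named genes were the SoxF genes, Cdh5, the target, called members and the 4 lowest p-values of each tested list, the 3 most abundant other Sox genes, the 5 closest profiles per SoxF gene and coding neighbours. Erg, Fli1 and Prox1 were named after their values were seen. One gene that this rule selects is not reported here. Depth was 43784619 to 50549673 counts per library.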

Additional observations from a re-analysis of the deposited data

How the results depend on the processing

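Sox18 kept the direction of its log2 fold change in 15 of 15 alternatives (-0.84 to -0.73), as did Sox17 (-0.37 to -0.03) and, in 9 of 15, Sox7. Leaving out each library in turn gave -0.31 to 0.11 for Sox7, -0.37 to -0.14 for Sox17 and -0.83 to -0.73 for Sox18. Without WT2 and WT3 the values were 0.70 for Sox7, -0.034 for Sox17 and -0.084 for Sox4, and the Sox7 ratio to Cdh5 was 0.35. With a beta-globin set term, chosen after seeing the data, Sox7 was at 0.12. With Pecam1 in place of Cdh5 the log2 ratio differences were -0.99 for Sox7, -1.26 for Sox17 and -1.78 for Sox18. With the summed list they were -0.71 for Sox17 and -1.23 for Sox18.

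Calls over all genes were 129, and became 211 without the filter, 313 in DESeq2, 36 to 388 with a library left out, 459 without KO1 and WT1, 20 without WT2 and WT3 and 236 with the beta-globin term. Other Sox genes had 1 call in DESeq2 and 1 with the beta-globin term. Endothelial transcription factors had 2 without the filter, 3 in DESeq2, 0 to 3 with a library left out, 4 without KO1 and WT1 and 2 with the beta-globin term. The list linked to SoxF had 0 to 4 with a library left out, 5 without KO1 and WT1 and 0 without WT2 and WT3. Notch and arterial genes had 1 in DESeq2 and 1 without KO1 and WT1, Wnt genes 2 in DESeq2 and 1 with the beta-globin term, and pan-endothelial genes 2 to 7 with a library left out and 2 without WT2 and WT3. The cause was not tested.

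With the replicate number as a block, calls were 282 over all genes, 3 endothelial transcription factors, 6 genes linked to SoxF and 3 Notch and arterial genes, and Sox7, Sox17 and Sox18 had log2 values of -0.01, -0.26 and -0.78. Deviations of same-numbered libraries correlated at 0.59, 0.31 and 0.034, and KO2 and KO3 each correlated best with a wild-type library of another number, so the numbers were not shown to pair the samples.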
